A study of Mus musculus with 6 samples.

Results

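Amino acid transporters carry amino acids and related small molecules across the plasma membrane and the membranes of lysosomes. Growing blood cells use exchangers built from a light chain of the Slc7a family and the heavy chain Slc3a2 to take up leucine and cystine, and use carriers of the Slc1a and Slc38a families to take up glutamine. A shortage of amino acids is sensed by the kinase GCN2, which acts through the transcription factor ATF4, and by mTORC1 at the lysosome. The genes described here are all those whose symbol starts with Slc1a, Slc3a, Slc6a, Slc7a, Slc36a, Slc38a or Slc43a followed by a number, which gave 65 of the 23282 genes counted. By family there were 7 Slc1a, 2 Slc3a, 21 Slc6a, 16 Slc7a, 5 Slc36a, 11 Slc38a and 3 Slc43a genes. The symbols take in 3 genes named after a neighbouring transporter on the other strand (Slc36a1os, Slc6a19os and Slc7a6os), which leaves 62 transporter symbols. Some of these carry other cargo, such as taurine (Slc6a6), creatine (Slc6a8), serotonin (Slc6a4) and purine bases (Slc43a3).

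RNA-seq read counts were given for 9 libraries from 6 samples of mouse blood-forming cells on a mixed 129/Sv and C57BL/6 background. MLL-AF9 is a leukaemia fusion gene whose retroviral transfer lets marrow cells grow in culture, and Mll4 (Kmt2d) is a histone H3 lysine 4 methyltransferase. A set of transformed cultures carried Mll4 with loxP sites (Mll4f/f) and differed in a second retrovirus. It held Cre (labelled Mll4 deleted, 2 libraries) or no insert (labelled intact, 2 libraries), and cells were sorted for GFP and Tomato 5 days later. A separate transformation used MLL4-/- marrow that received MLL-AF9-neo together with FOXO3-IRES-GFP (2 libraries) or an empty vector (1 library), so by their label both of these groups lack Mll4. FOXO3 is a transcription factor of stress resistance, given here by a retrovirus. LSK cells, the marrow fraction with stem cells and early progenitors, came from 2-month-old polyIC-treated littermates and were labelled Mll4 deleted (MLL4f/f MxCre+, 1 library) or wild type (WT MxCre+, 1 library). MxCre is a Cre transgene switched on by interferon, and both LSK groups had it and the polyIC that induces it. Cre retrovirus goes with deletion in the transformed cells, so the effects of Cre and of Mll4 loss cannot be told apart there.

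Library totals ran from 25895041 to 61950773 counts. The LSK libraries were made from about 50 picked cells with PCR amplification and the transformed ones from extracted RNA, so levels in the 2 kinds of cell are given side by side without a test. Kmt2d counts were not lower in the libraries labelled Mll4 deleted, with 95.6 and 73.7 CPM (counts scaled to the library total) in transformed cells labelled deleted against 79.5 and 61.7 CPM in the intact pair, and 13.9 against 1.88 CPM in LSK cells. The MLL4-/- cells had 102 and 115 CPM with FOXO3, against 116 CPM with the empty vector, the highest Kmt2d values of the 9 libraries. Counts over the whole gene do not check an exon deletion, and all directions given for Mll4 loss, and the name of the MLL4-/- cells, rest on the labels. The FOXO3 retrovirus was seen as 1292 and 1309 CPM of Foxo3, against 27.3 CPM with the empty vector. Xist and Ddx3y showed 1 female and 1 male library in each of the deleted and intact pairs, with the sexes crossed between same-numbered libraries. The FOXO3 libraries differed from each other far less (chi-square per degree of freedom 1.97) than the deleted (191) or the intact pair (146). The labels do not state whether a sample's libraries were separate cultures. The female and male libraries of the deleted and intact pairs cannot be repeats of the same RNA, while the FOXO3 pair, both male, may be. P-values measure the spread between these libraries, which may be technical in the FOXO3 pair. Each call is therefore given also with the FOXO3 pair summed into 1 library. The LSK defining markers Kit (102 against 46.8 CPM) and Ly6a (28.2 against 80.2 CPM) were present in both LSK libraries.

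Transformed cells expressed many of these transporters. The mean over the 7 MLL-AF9 libraries was at least 10 CPM for 26 members, 1 to 10 CPM for 12 and below 1 CPM for 27, and 10 members had no count in any of the 9 libraries. Per length, as CPM per kilobase of the longest coding transcript, the most abundant was Slc3a2, the heavy chain shared by the exchangers, with a mean of 154 and a range of 127 to 206. Next came the leucine exchanger Slc7a5 at 101 (63.4 to 159), the glutamine carrier Slc1a5 at 89.7 (45.6 to 158) and the glutamine and alanine carrier Slc38a2 at 52.4 (22.9 to 99.6). These ranges overlap between neighbours in the order. The 65 members together took 3026 to 3695 CPM in the MLL-AF9 libraries, and 1648 CPM in the LSK library labelled deleted against 1431 CPM in the wild type one. Within families 1 gene often carried most of the counts, with Slc3a2 at 99.98% to 99.99% of Slc3a in MLL-AF9 libraries and Slc1a5 at 87.1% to 94.1% of Slc1a in the same libraries.

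**Figure D1:**
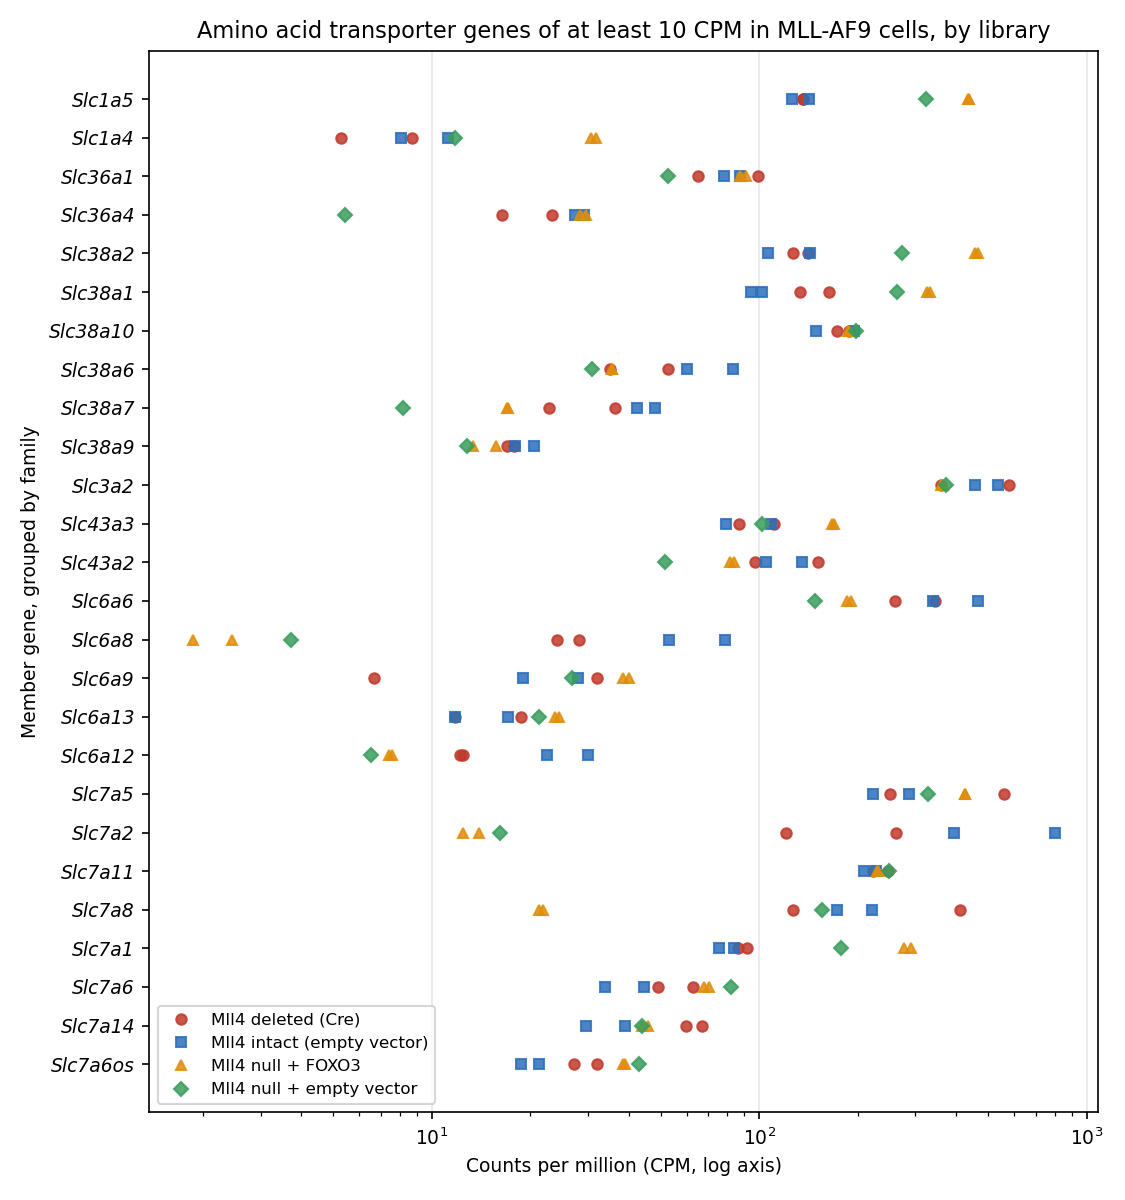
Levels of the 26 members that average 10 CPM or more in MLL-AF9 cells, 1 point per library, with CPM on a log axis and genes grouped by family. Slc7a11 lies between 209 and 249 CPM in all 7 libraries, while Slc7a2 runs from 12.5 to 803 CPM.

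In CPM, the cystine exchanger Slc7a11 varied least between the 7 libraries among the 26 members of at least 10 CPM. Its highest value was 1.20 times the lowest, followed by 1.33 times for Slc38a10. The lead of Slc7a11 over Slc38a10 holds for CPM without TMM only, as TMM factors ran from 0.942 to 1.27 between these libraries. Slc7a11, which trades glutamate for cystine and so feeds glutathione synthesis, had 222 and 247 CPM in the libraries labelled Mll4 deleted, against 209 and 228 CPM in the intact pair. It had 231 and 229 CPM with FOXO3, against 249 CPM with the empty vector. The deleted and intact values overlapped, the FOXO3 values lay just below the empty vector, and neither comparison passed (log2 fold change −0.18 ± 0.14 and −0.17 ± 0.17 (SE), adjusted p = 0.401 and 0.625 by edgeR's quasi-likelihood test, adjusted after Benjamini and Hochberg). The log2 fold change after Mll4 loss is negative although the CPM means are higher in the deleted pair, because the test uses TMM scaling. With total-count scaling it was 0.10. Its partner Slc3a2 had 578 and 358 CPM in the deleted pair, against 538 and 455 CPM in the intact pair, and 365 and 358 CPM with FOXO3, against 372 CPM with the empty vector, and passed in neither comparison.

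Slc7a11 is a textbook target of ATF4, and its start region is shown because the ATF4-linked genes described below moved while Slc7a11 did not pass. The windows are the 250 bases before an annotated start, from RefSeq on GRCm38.p6, 5′ to 3′ on the gene's strand, in lower case with matches to 3 motifs in capitals, searched on both strands. The motifs were TGATGNAA (the C/EBP-ATF element that ATF4 binds), TGACNNNGC (the core of the antioxidant response element) and GTAAACA (a forkhead element of the kind FOXO factors bind). The Slc7a11 window (chr3:50443614-50443863, minus strand) held TGATGCAA starting at −66 and its mirror TTGCATCA at −47, and the forkhead letters as TGTTTAC at −232. Slc36a4 (chr9:15709488-15709737, plus strand) and Slc7a1 (chr5:148399905-148400154, minus strand) are shown because they rose with FOXO3. The Slc36a4 window held none of the 3 motifs, and the Slc7a1 window held the antioxidant letters as GCGCTGTCA at −11.
Slc7a11: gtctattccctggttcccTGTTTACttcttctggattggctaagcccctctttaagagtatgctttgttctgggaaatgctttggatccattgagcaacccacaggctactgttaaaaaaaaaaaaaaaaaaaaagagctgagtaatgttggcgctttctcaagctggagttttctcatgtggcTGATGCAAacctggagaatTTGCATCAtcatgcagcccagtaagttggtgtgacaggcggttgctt
Slc36a4: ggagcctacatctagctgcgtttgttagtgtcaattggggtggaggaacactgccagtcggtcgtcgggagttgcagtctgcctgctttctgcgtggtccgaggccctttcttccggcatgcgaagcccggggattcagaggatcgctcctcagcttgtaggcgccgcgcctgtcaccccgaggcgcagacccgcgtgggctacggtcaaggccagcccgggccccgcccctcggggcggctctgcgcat
Slc7a1: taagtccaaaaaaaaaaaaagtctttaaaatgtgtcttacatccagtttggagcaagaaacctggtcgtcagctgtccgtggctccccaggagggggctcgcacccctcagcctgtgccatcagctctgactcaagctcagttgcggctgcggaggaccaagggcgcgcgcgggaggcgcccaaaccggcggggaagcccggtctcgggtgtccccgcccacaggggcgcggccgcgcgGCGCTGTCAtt

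The promoter table held 68 windows of 47 member genes. The C/EBP-ATF letters were in 4 of the 68 member windows (5.88%) and in 3.45% of all 32851 windows, and the genes with them were Slc7a11, Slc7a7 and Slc6a21. The antioxidant letters were in 9 member windows (13.2%) and in 10.2% of all windows, and the forkhead letters in 2 member windows (2.94%) and in 3.17% of all windows. A match says only that these letters stand in the window. A second Slc7a1 window (chr5:148392816-148393065, minus strand) held none of the motifs. Slc7a4, Slc7a5, Slc1a5 and Slc38a1 were not in the table.

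Loss of Mll4 in transformed cells was examined by setting the libraries labelled Mll4 deleted against the intact pair. The creatine carrier Slc6a8, the betaine and GABA carrier Slc6a12 and the glutamate carrier Slc1a2 fell, and Slc7a14, a relative of the cationic amino acid carriers, rose. Of the 65 members 47 had enough counts to be tested, and 1 was higher and 3 were lower at an adjusted p under 0.05. That is 8.51% of the tested members, while 14.9% of all 14997 tested genes were called (7.97% higher and 6.94% lower), so the share of members called was below the share of all genes. With the FOXO3 pair summed edgeR called 0 members, against 2.08% of all genes (1.23% higher and 0.854% lower), with 10 members at an unadjusted p under 0.05 there. DESeq2 called 10 of the 43 members to which it gave an adjusted p (23.3%), 1 higher and 9 lower, against 25.6% of all genes (13.3% higher and 12.3% lower). The median log2 fold change of the 47 members was −0.26, against −0.03 for all genes, with 32 members negative and 15 positive. With total-count scaling the median of all genes moved to 0.24 and that of the members to 0.02, with 24 positive and 23 negative, 3 higher and 3 lower, so the lean to negative values holds relative to the other genes only.

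Slc6a8, which brings creatine into cells, had 24.1 and 28.2 CPM in the libraries labelled Mll4 deleted, against 53.2 and 78.6 CPM in the intact pair. Both deleted libraries were below both intact ones. The log2 fold change was −1.63 ± 0.27 (SE, adjusted p = 0.0205 by edgeR, 0.0593 with the FOXO3 pair summed). Slc6a12 had 12.2 and 12.5 CPM in the deleted pair, against 22.4 and 30.0 CPM in the intact pair, again without overlap (−1.38 ± 0.22, adjusted p = 0.0181, 0.0698 with the pair summed). Slc1a2, known best as the glutamate carrier of glia, was low throughout, with 5.00 and 5.14 CPM in the deleted pair, against 8.15 and 6.34 CPM in the intact pair (−0.79 ± 0.18, adjusted p = 0.0443, 0.169 with the pair summed). Its call was lost when any 1 of the 7 libraries was left out, at adjusted p values of 0.0522 to 0.17.

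Slc7a14 had 59.7 and 66.7 CPM in the libraries labelled deleted, against 38.9 and 29.6 CPM in the intact pair. The deleted libraries were both higher, with a log2 fold change of 0.61 ± 0.13 (adjusted p = 0.0341 by edgeR, 0.0995 with the FOXO3 pair summed). Slc7a14 lost its call without deleted library 2 (adjusted p = 0.0538) and without intact library 1 or 2 (0.0554 and 0.0833). The Slc6a8 call was lost without deleted library 1 (0.052) and without intact library 2 (0.0525). Leaving out either FOXO3 library ended all 4 calls, at adjusted p values of 0.0594 to 0.17.

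Several members differed without passing, and those with very few counts come last. The arginine and lysine carrier Slc7a2, which macrophages use for arginine, had 121 and 262 CPM in the libraries labelled deleted, against 394 and 803 CPM in the intact pair. Slc7a2 values did not overlap between the groups, but the 2 libraries of each pair lay far apart, and the log2 fold change of −1.95 ± 0.51 had an adjusted p of 0.0565 by edgeR. The lysosomal glutamine exporter Slc38a7 (22.8 and 36.2 CPM deleted, against 42.5 and 48.2 CPM intact), Slc38a6 (35.0 and 52.6 CPM, against 60.3 and 83.3 CPM) and the proline and tryptophan carrier Slc36a4 (16.4 and 23.4 CPM, against 27.4 and 29.2 CPM) had adjusted p values of 0.0618, 0.0617 and 0.0549. In these 3 genes both deleted values were below both intact ones. The glutamine carrier Slc38a5 had 0 counts in both deleted libraries, against 7 and 9 counts in the intact pair, which makes it at least 1.73-fold lower on a limit of 3 counts per library. The proline carrier Slc6a20a stayed below 0.1 CPM in all 4 libraries.

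None of the carriers of glutamine and leucine described next passed after Mll4 loss. Slc1a5 had 136 and 136 CPM in the libraries labelled deleted, against 126 and 142 CPM in the intact pair, and Slc38a2 had 141 and 126 CPM, against 143 and 107 CPM, both with overlap. Slc38a1, a glutamine carrier of the same family, had 163 and 133 CPM in the deleted pair, against 102 and 94.1 CPM in the intact pair, without overlap but with an adjusted p of 0.146 by edgeR. Slc7a5 stood at 558 CPM in deleted library 1 and 252 CPM in deleted library 2, against 286 and 223 CPM in the intact pair, so 1 library held the high value. The arginine carrier Slc7a1 (86.1 and 91.9 CPM deleted, against 83.6 and 75.5 CPM intact) and the light chain Slc7a6, which exports arginine in exchange for neutral amino acids (62.9 and 49.1 CPM, against 44.6 and 33.7 CPM) did not pass.

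Other members of known function also did not pass. The taurine carrier Slc6a6 had 259 and 344 CPM in the libraries labelled deleted, against 340.0 and 467 CPM in the intact pair, and the glycine carrier Slc6a9 had 32.1 and 6.65 CPM, against 27.9 and 19.0 CPM. The lysosomal arginine sensor Slc38a9 (16.97 and 17.85 CPM deleted, against 20.54 and 17.94 CPM intact) did not overlap between the groups but nearly met, and the lysosomal carrier Slc36a1 (64.9 and 99.3 CPM, against 78.0 and 87.1 CPM) overlapped. The facilitative leucine carriers Slc43a1 and Slc43a2 had 3.94 and 8.42 CPM and 96.9 and 151 CPM in the deleted pair, against 1.62 and 2.53 CPM and 105 and 135 CPM in the intact pair. The alanine and serine carrier Slc1a4 had 5.29 and 8.70 CPM deleted, against 8.05 and 11.2 CPM intact.

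**Figure D2:**
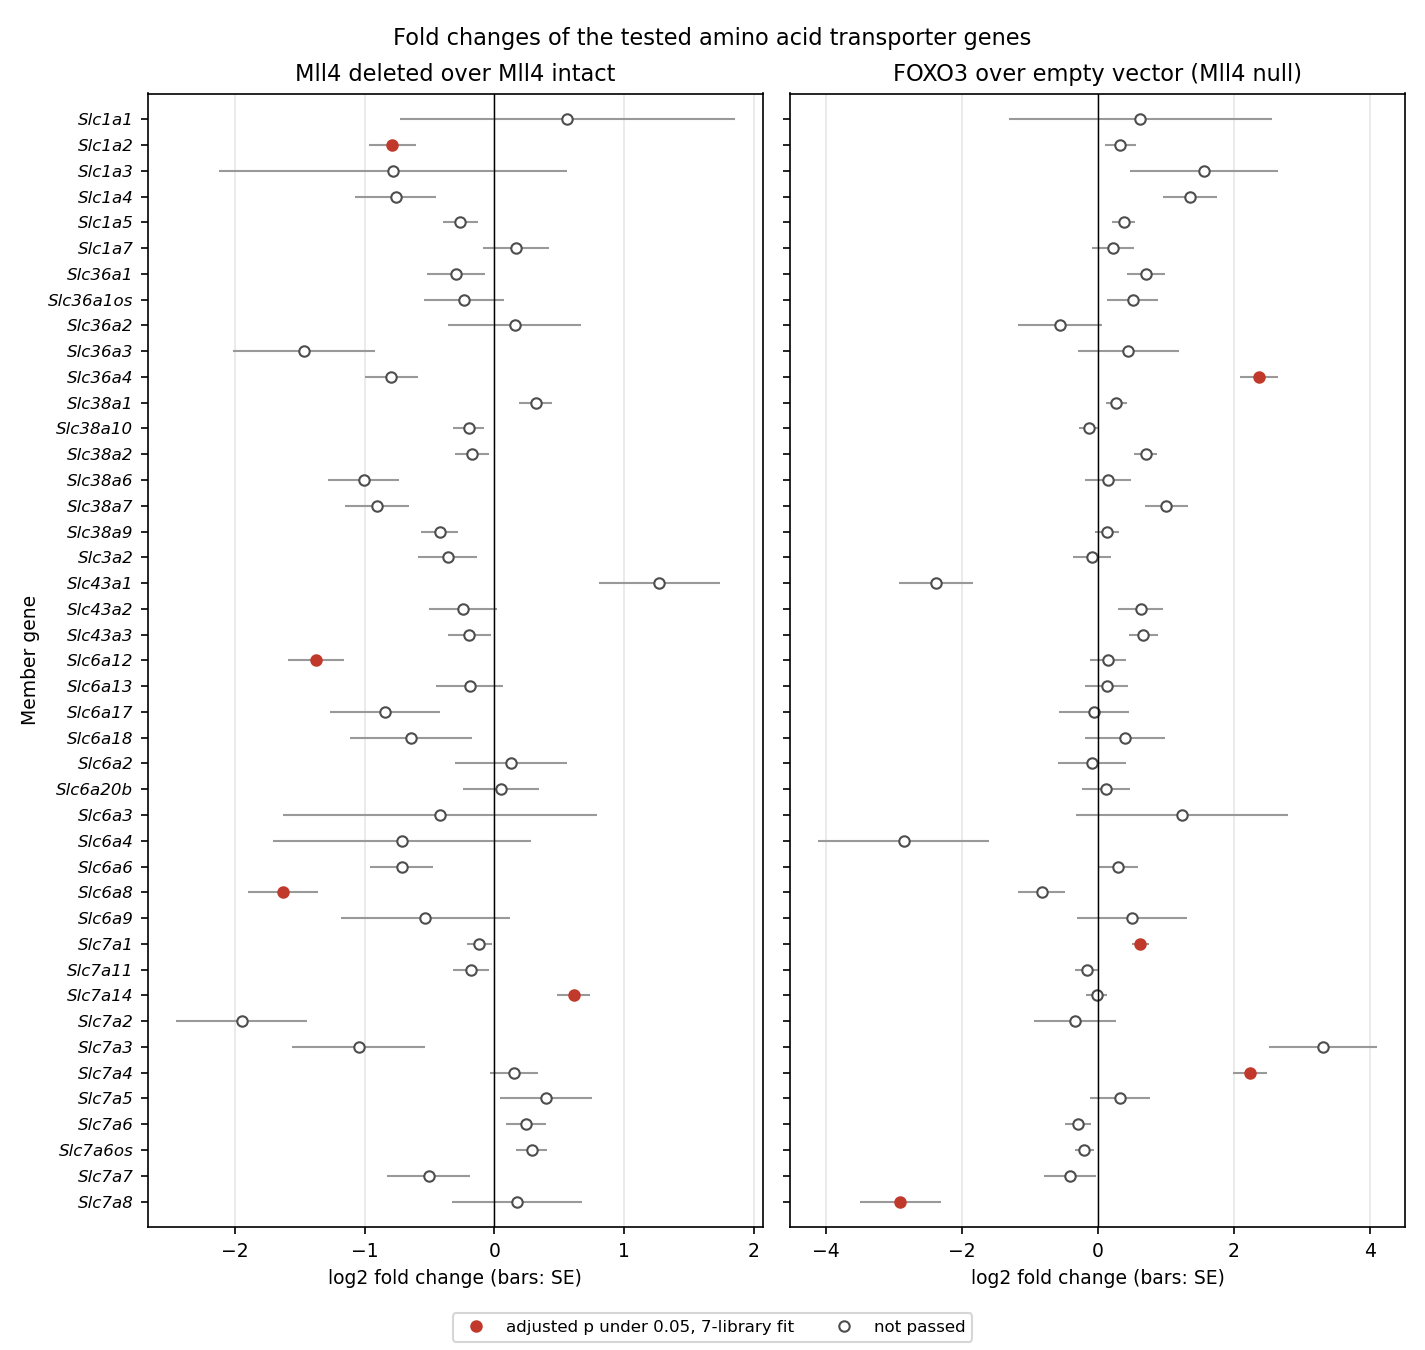
Log2 fold changes of the tested member genes with standard errors, for Mll4 deleted over intact (left panel) and FOXO3 over empty vector (right panel), with filled points at an adjusted p under 0.05 in the fit of 7 libraries and without Slc38a5, Slc6a15, Slc6a19 and Slc6a20a, which had 0 counts in every library of a group. Slc6a8 and Slc6a12 are the filled points below −1 on the left, and Slc36a4 and Slc7a4 the filled points above 2 on the right.

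Marker genes of other blood cells were measured in the same libraries, since each culture can hold several kinds of cell. In bulk RNA fewer cells of a type and less RNA per cell cannot be told apart. The 18 macrophage markers found summed to 3310 to 4770 CPM in the libraries labelled deleted, against 4918 to 5616 CPM in the intact pair, with 2 of the 18 lower and none at 0. Slc7a2, Slc6a8 and Slc6a12 were lower in the same libraries, and the part of macrophage content in their values was not tested. The 11 mast cell and basophil markers summed to 13079 and 1673 CPM in deleted libraries 1 and 2, against 7396 and 3345 CPM in the intact pair. Slc7a8, a light chain for neutral amino acids, ranked the 4 libraries in the same order, with 410.3 and 127 CPM in the deleted pair, against 221 and 172 CPM in the intact pair. Its log2 fold change of 0.18 ± 0.50 did not pass (adjusted p = 0.836 by edgeR), and it was −0.83 without deleted library 1 and 0.79 without deleted library 2, with adjusted p values of 0.0223 and 0.021. The part of mast cell content in Slc7a8 was not tested. Neutrophil markers summed to 21322 to 27010 CPM in the deleted pair, against 8371 to 14431 CPM in the intact pair (6 of 16 higher, 2 lower). Platelet markers summed to 709 to 1164 CPM, against 933 to 1437 CPM (9 of 14 lower). Of 12 tested erythroid markers 5 were lower (median log2 fold change −1.82), though their sums overlapped (219 to 358 CPM, against 190 to 251 CPM). The part of these lists in the transporter values was not tested either.

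Genes of the amino acid stress response were measured in the same libraries. Of 31 tested genes of the ATF4 response 12 fell and 2, the serine synthesis genes Psat1 and Phgdh, rose (median −0.52, against −0.03 for all genes), and with the FOXO3 pair summed 4 were lower, namely Atf5, Ddit3, Ppp1r15a and Trib3. Trib3, a pseudokinase induced by ATF4, had 9.59 and 8.83 CPM in the libraries labelled deleted, against 125 and 59.6 CPM in the intact pair (−3.58 ± 0.32, adjusted p = 0.0079 by edgeR, 0.0484 with the pair summed). Ddit3 (CHOP) had 11.9 and 11.4 CPM deleted, against 78.8 and 48.4 CPM intact, and Atf5 had 36.0 and 44.8 CPM, against 165 and 152 CPM, each without overlap. Ppp1r15a (GADD34), which restarts translation, had 80.8 and 68.1 CPM deleted, against 213 and 173 CPM intact. The transporters tied to ATF4, which are Slc7a11, Slc3a2, Slc7a5, Slc38a2 and Slc7a1, did not pass in the same fit. Among 6 tested genes of GCN2 and the other eIF2 alpha kinases edgeR and DESeq2 called 0, with 0 at an unadjusted p under 0.05.

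Genes that use the carried amino acids were counted in a pair of lists, beside 14.9% of all tested genes called. Arg2, the mitochondrial arginase, had 3.26 and 4.48 CPM in the libraries labelled deleted, against 35.7 and 34.3 CPM in the intact pair (−3.46 ± 0.21, adjusted p = 0.0073 by edgeR, 0.0484 with the FOXO3 pair summed). Both deleted values were far below both intact ones. Of the 16 tested genes of branched chain, arginine and tryptophan use, Arg2 was lower and Bckdk, the kinase of the branched chain dehydrogenase, higher. Of 18 glutathione and glutamine genes Gsr, Got2 and Cbs were higher and Ggt1 lower. Gsr, glutathione reductase, had 254 and 248 CPM in the deleted pair, against 99.5 and 72.7 CPM in the intact pair, and kept its call with the pair summed (adjusted p = 0.0484). Of 34 genes of lysosomal amino acid sensing and mTORC1, Sesn1, a leucine-linked inhibitor of mTORC1, was higher and Rragc, Sesn2 and Fnip2 were lower, and with the pair summed edgeR called 0 of them (7 at an unadjusted p under 0.05).

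FOXO3 expression was examined in the cells labelled MLL4-/-. Slc7a4, a relative of the cationic carriers, Slc36a4 and the arginine carrier Slc7a1 rose with FOXO3, and Slc38a5 and Slc7a8 fell. These 5 calls are 10.6% of the 47 tested members, while 7.13% of all tested genes were called (2.2% higher and 4.93% lower), so the members' share was near that of all genes. With the FOXO3 pair summed edgeR called 0 members, against 1.19% of all genes (0.213% higher and 0.974% lower), with 12 members at an unadjusted p under 0.05 there. DESeq2 called 11 of 43 members (25.6%), 8 higher and 3 lower, against 15.2% of all genes (5.74% higher and 9.42% lower). The median log2 fold change of the members was 0.22, against −0.04 for all genes, with 29 positive and 18 negative. A single empty-vector library carries every FOXO3 comparison, and its spread was taken from the other groups.

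Slc36a4, a carrier of proline and tryptophan, had 29.6 and 28.4 CPM with FOXO3, against 5.43 CPM with the empty vector. Both FOXO3 libraries were about as high as the Mll4-intact libraries of the other transformation (27.4 and 29.2 CPM), and the empty-vector library was the lowest of the 7. The log2 fold change was 2.37 ± 0.28 (adjusted p = 0.0103 by edgeR, 0.0606 with the FOXO3 pair summed). Slc7a4 had 12.7 and 12.4 CPM with FOXO3, against 2.57 CPM with the empty vector (2.24 ± 0.25, adjusted p = 0.0088, 0.0669 with the pair summed). Slc7a4 also had its lowest value of the 7 libraries in the empty-vector one.

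Slc7a1, the general arginine and lysine carrier, had 277 and 291 CPM with FOXO3, against 178 CPM with the empty vector (0.63 ± 0.13, adjusted p = 0.0438 by edgeR, 0.252 with the pair summed). The FOXO3 values were both higher, and all 3 were above the 75.5 to 91.9 CPM of the other transformation. Slc7a3, another cationic carrier, had 2.83 and 2.29 CPM with FOXO3, against 0.248 CPM with the empty vector, and did not pass (adjusted p = 0.0718). Slc7a2 stood at 12.5 and 14.0 CPM with FOXO3, against 16.2 CPM with the empty vector, far below its values in the Mll4f/f cells.

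Slc38a5, which carries glutamine in exchange for protons, had 0 counts in both FOXO3 libraries, against 84 counts (1.60 CPM) with the empty vector. It was at least 19.8-fold lower with FOXO3 on a limit of 3 counts per library (adjusted p = 0.0284 by edgeR, 0.0906 with the FOXO3 pair summed). Slc7a8 had 21.3 and 21.8 CPM with FOXO3, against 156 CPM with the empty vector, a log2 fold change of −2.90 ± 0.60 (adjusted p = 0.047, 0.216 with the pair summed). The FOXO3 values of Slc7a8 were the lowest of the 7 libraries. Without either intact library the calls of Slc38a5 (adjusted p = 0.11 both times), Slc7a8 (0.109 and 0.11) and Slc7a1 (0.0589 and 0.06) were lost. Without either FOXO3 library all 5 calls were lost, at adjusted p values of 0.067 to 0.306.

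**Figure D3:**
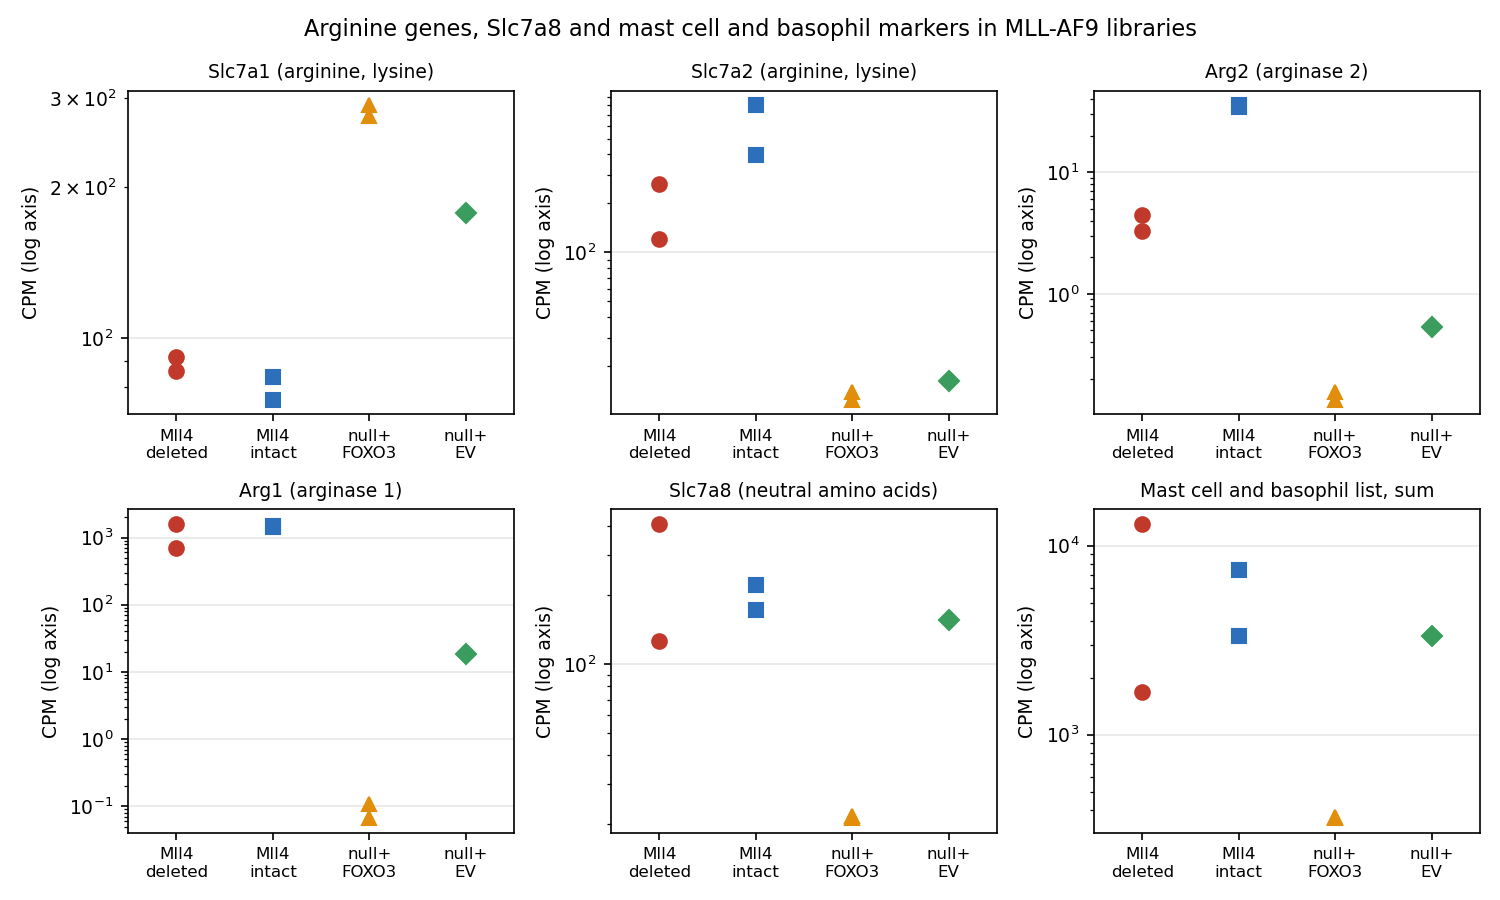
CPM on log axes in the 7 MLL-AF9 libraries for 2 arginine carriers (Slc7a1, Slc7a2), the arginases Arg2 and Arg1, Slc7a8 and the sum of the 11 mast cell and basophil markers, 1 point per library. Slc7a8 and the marker sum are both lowest in the FOXO3 libraries, at 21.3 and 21.8 CPM and at 362 and 365 CPM.

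Of the 11 mast cell and basophil markers 5 fell with FOXO3, as Slc7a8 did. Their sum was 362 and 365 CPM with FOXO3, against 3325 CPM with the empty vector, with a median log2 fold change of −4.24 and none at 0. Slc6a4, the serotonin carrier, had 1.05 and 0.802 CPM with FOXO3, against 6.47 CPM with the empty vector, and did not pass. The leucine carrier Slc43a1 had 1.27 and 1.02 CPM with FOXO3, against 5.77 CPM with the empty vector (adjusted p = 0.0641 by edgeR). Of the 18 macrophage markers 9 fell with FOXO3, with a median log2 fold change of −2.33 and 4 at 0. Csf1r, the macrophage growth factor receptor, had 1.70 and 1.92 CPM, against 7.46 CPM, and did not pass, and Mrc1, the mannose receptor, fell to 1.89 and 2.07 CPM, against 43.3 CPM. The macrophage sum was higher nevertheless (2055 to 2109 CPM with FOXO3, against 1174 CPM with the empty vector), as Ly6c2, a monocyte marker, held most of it (2053 and 1997 CPM, against 992 CPM). Erythroid markers summed to 466 to 469 CPM with FOXO3, against 1088 CPM with the empty vector (10 of 12 tested lower). Platelet markers summed to 86.6 and 87.6 CPM, against 395 CPM (0 of 14 called). Stem and progenitor markers summed to 328 and 332 CPM, against 763 CPM (3 of 15 lower). The neutrophil sum was higher with FOXO3, at 23844 and 23676 CPM, against 20778 CPM (1 of 16 lower). The part of these cell types in the transporter values was not tested.

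Some glutamine and alanine carriers other than Slc38a5 had higher values with FOXO3 without passing. Slc38a2 had 456 and 464 CPM with FOXO3, against 273 CPM with the empty vector (0.70 ± 0.17, adjusted p = 0.0686 by edgeR). Slc1a5 had 436 and 436 CPM, against 324 CPM, Slc38a1 had 326 and 333 CPM, against 264 CPM, and Slc1a4 had 31.8 and 30.5 CPM, against 11.8 CPM. In each the FOXO3 pair was above the empty vector, and the adjusted p values were 0.26, 0.376 and 0.113. Slc38a7 stood at 17.0 and 17.1 CPM with FOXO3, against 8.19 CPM with the empty vector, and Slc36a1 at 87.1 and 90.8 CPM, against 52.7 CPM.

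The remaining named members did not pass with FOXO3 either. The leucine exchanger Slc7a5 had 426 and 425 CPM with FOXO3, against 327 CPM with the empty vector, and its relative Slc7a6 had 70.4 and 68.0 CPM, against 82.0 CPM. Slc43a3, the purine base carrier, had 167 and 169 CPM, against 102 CPM, and Slc43a2 had 81.2 and 83.9 CPM, against 51.7 CPM. Slc6a6 had 186 and 191 CPM, against 148 CPM, and Slc6a9 had 40.0 and 38.3 CPM, against 26.7 CPM. Slc7a7, an exporter of cationic amino acids, had 3.16 and 3.68 CPM, against 4.40 CPM, and Slc38a9 had 13.3 and 15.7 CPM, against 12.8 CPM. The kidney and gut carriers Slc6a20a and Slc6a19 had 0 counts in both FOXO3 libraries, against 17 and 12 counts with the empty vector (at least 4.0-fold and 2.82-fold lower), and Slc6a15 had 11 counts over the FOXO3 pair, against 0 (at least 2.35-fold higher).

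Of the 16 tested genes of branched chain, arginine and tryptophan use 3 fell with FOXO3, while 8 of the 16 fold changes were positive and 8 negative. Arg1, the cytosolic arginase, had 0.108 and 0.0668 CPM with FOXO3, against 18.4 CPM with the empty vector (−7.75 ± 0.66, adjusted p = 0.0046 by edgeR, 0.0367 with the FOXO3 pair summed). Ass1, which makes argininosuccinate, had 1.24 and 1.16 CPM, against 24.2 CPM (−4.38 ± 0.47, adjusted p = 0.00755, 0.0576 with the pair summed), and Arg2 had 0.135 and 0.156 CPM, against 0.533 CPM. Asl, which makes arginine from argininosuccinate, had 43.6 and 44.5 CPM, against 36.7 CPM, and did not pass. Arg1 alone kept its call with the pair summed. Of the ATF4 response Atf5 and Sesn2 were higher and Atf3 lower among 31 tested, and 27 of the 31 were positive with a median of 0.64. With the pair summed edgeR called 0 of the 31, with 8 at an unadjusted p under 0.05. By DESeq2 in 7 libraries 10 of them were higher and 1 lower. Gsr was higher among 18 glutathione and glutamine genes (1279 and 1276 CPM, against 450 CPM, adjusted p = 0.0106, 0.0845 with the pair summed), and Sesn2 among 34 of the mTORC1 list. Of the 6 eIF2 alpha kinase genes DESeq2 called 1 and edgeR 0, with 1 at an unadjusted p under 0.05.

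Summed by family as CPM of the library total, 1 of 7 log2 ratios was larger than the spread within groups (SD) after Mll4 loss. With FOXO3 5 of 7 were. The SD pools the deleted, intact and FOXO3 pairs, and the FOXO3 ratios rest on 1 empty-vector library. The Slc6a family summed to 374 and 417 CPM in the libraries labelled Mll4 deleted, against 493 and 624 CPM in the intact pair, without overlap (log2 ratio −0.50). The other families differed by −0.11 to 0.08 on the log2 scale after Mll4 loss. On TMM-scaled CPM these 6 were all negative, at −0.35 to −0.14. The signs of Slc38a (0.06) and Slc43a (0.08) turned to −0.17 and −0.14, and Slc3a (−0.08) and Slc36a (−0.11) moved to −0.32 and −0.34. So scaled, Slc1a (−0.25, SD 0.065) and Slc3a (−0.32, SD 0.30) passed the same SD, as did every family but Slc43a (−0.14, SD 0.22). The count of 1 after Mll4 loss thus depends on the scaling. With FOXO3 the Slc36a family summed to 131 and 133 CPM, against 68.9 CPM with the empty vector (0.94), and Slc43a to 249.8 and 254 CPM, against 159.7 CPM (0.66). Slc1a (0.47), Slc38a (0.41) and Slc6a (0.29) were also higher with FOXO3, and Slc3a (−0.04) and Slc7a (0.05) were near 0, with Slc7a at −0.02 on TMM-scaled CPM. These sums have no test.

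**Figure D4:**
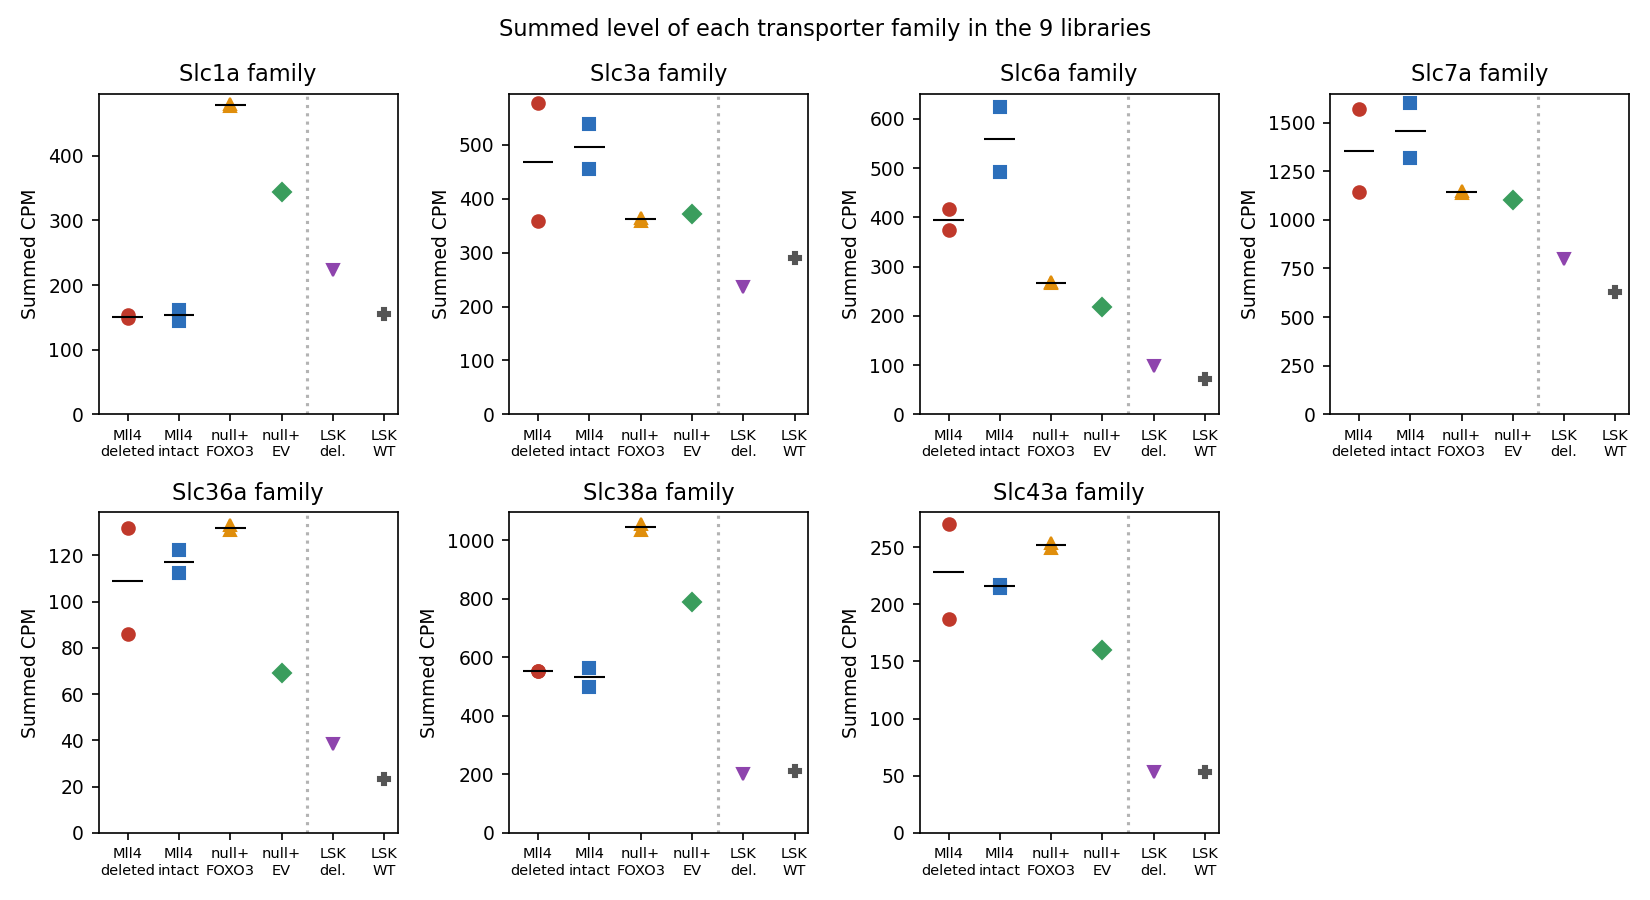
Summed CPM of each transporter family in the 9 libraries, 1 point per library, with a bar at the mean of pairs and a dotted line between MLL-AF9 and LSK libraries. The Slc6a family is lower in the libraries labelled Mll4 deleted (374 and 417 CPM) than in the intact ones (493 and 624 CPM), and the Slc38a family is highest with FOXO3 (1034 and 1054 CPM).

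The 2 transformations differed from each other in several members, given as values because the vectors and marrow differ as well. By Xist and Ddx3y the MLL4-/- libraries were all male, while the Mll4f/f ones were of both sexes. Slc1a5 stood at 324 to 436 CPM in the MLL4-/- cells and at 126 to 142 CPM in the Mll4f/f cells, and Slc38a1 at 264 to 333 CPM and 94.1 to 163 CPM. Slc7a2 stood at 12.5 to 16.2 CPM in the MLL4-/- cells and at 121 to 803 CPM in the Mll4f/f cells, and Slc6a8 at 1.86 to 3.71 CPM and 24.1 to 78.6 CPM. No values of the 2 transformations overlapped for these 4 genes, which are examples. Slc38a2 and Slc7a1 did not overlap either, while Slc7a11 and Slc38a10 did. The share without overlap over all genes was not counted, so it is not read as a trait of these members.

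LSK cells were compared to see the same genes in primary cells, with 1 library per label and no test. Per length, the highest member there was Slc3a2, with 83.9 CPM per kilobase in the library labelled Mll4 deleted against 103 in the wild type one, followed by Slc7a11 (72.7 against 51.8) and Slc1a5 (65.7 against 52.7). In CPM without length Slc7a11, whose transcript is long, had 670.4 against 478 CPM, Slc3a2 236 against 290.1 CPM and Slc1a5 182 against 146 CPM. Slc7a5, the main leucine light chain in transformed cells, had only 11.6 against 0.263 CPM. In LSK cells 31 members had a mean of at least 1 CPM, 29 had no count in either library, and 4 of those 29 had at least 10 CPM in transformed cells, namely Slc36a4, Slc6a9, Slc6a12 and Slc6a13. Of the 31, 8 were higher and 6 lower by over 2-fold in the library labelled deleted, which is 45.2%. Over all 10174 genes of that level 63% were past 2-fold (28.1% higher and 34.9% lower), so the share of members was below that of all genes. The median log2 ratio of the members was −0.08, against −0.15 for all genes. Intervals for LSK ratios are exact binomial (Clopper-Pearson) at 95% and, like the 3-count limits, cover counting error only, as PCR copies are not independent molecules.

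Among carriers at the cell surface Slc1a4 had 31.8 CPM in the LSK library labelled deleted against 0.226 CPM in the wild type one, a log2 ratio of 7.14 (6.01 to 8.59). Slc6a4 had 19.6 against 0.150 CPM, Slc43a3 had 30.4 against 0.451 CPM and Slc7a1 had 15.0 against 5.45 CPM. Slc43a2 was lower in the library labelled deleted, with 5.48 against 29.4 CPM, as was Slc7a14 with 18.7 against 42.1 CPM. Slc38a1 had 0 counts against 246 (9.25 CPM) and was at least 79.8-fold lower. Of the lysosomal members Slc38a9 had 11.01 against 0.489 CPM, and Slc38a7 had 0 counts against 1687 (63.4 CPM), at least 547-fold lower. Slc38a10, a family member whose cargo is less settled, had 129 against 46.5 CPM. Over all genes of these small samples 63% were past 2-fold. How many of them were near 0 in 1 library and high in the other was not counted.

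**Figure D5:**
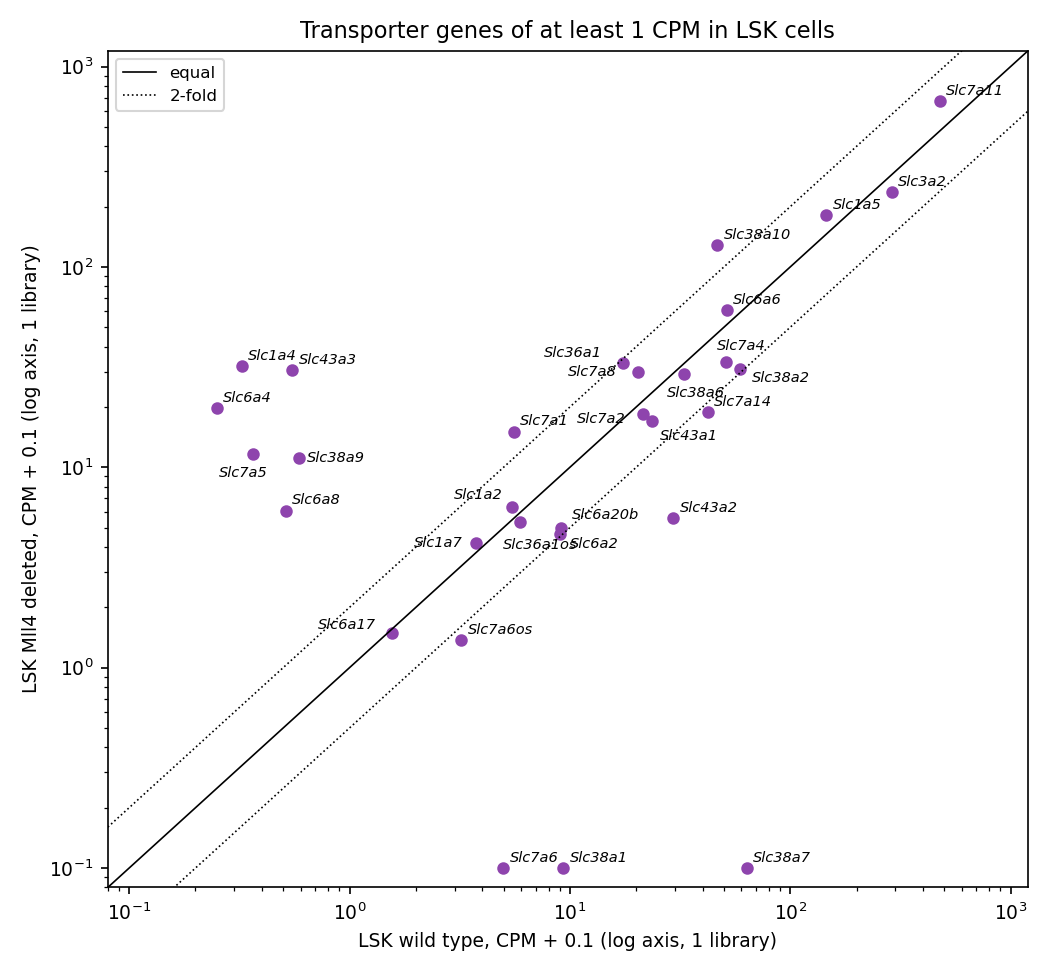
CPM plus 0.1 of the members that average 1 CPM or more, in the LSK library labelled Mll4 deleted (vertical) against the wild type one (horizontal), both on log axes, with lines at equality and at 2-fold. Slc7a11 (670.4 against 478 CPM) is at the top right, and Slc7a6, Slc38a1 and Slc38a7 lie at 0 in the library labelled deleted.

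Marker lists of other cells were set beside the LSK values. The macrophage list summed to 47.7 CPM in the LSK library labelled deleted (12 of 18 at 0) against 181 CPM in the wild type one (13 of 18 at 0), and the mast cell and basophil list to 195 against 302 CPM (6 of 11 at 0 in both). Neutrophil markers summed to 341 against 707 CPM and platelet markers to 366 against 431 CPM. Erythroid markers summed to 50.3 against 209 CPM, and of these Klf1, an erythroid transcription factor, had 0 against 92.8 CPM and the carbonic anhydrase Car1 had 0.0386 against 107 CPM. The stem and progenitor list summed to 1363 against 2838 CPM. The part of cell content in the LSK transporter values was not tested.

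Reads of overlapping genes can enter some of these values, because the use of strand in counting is not given in the sources used here. In the GENCODE M21 annotation 14 members have an exon over another gene on the other strand. Among members named above these are Slc1a2, Slc38a9, Slc38a10, Slc43a2, Slc6a6, Slc6a9, Slc6a20a, Slc7a2, Slc7a4 and Slc7a7. The gene over Slc7a4, P2rx6, was below 1 CPM in all 9 libraries. Oxa1l over Slc7a7 stood at 46.3 to 71.3 CPM in transformed cells, so the low Slc7a7 values there are uncertain. In LSK cells Oxa1l had 258 CPM in the library labelled deleted and 184 CPM in the wild type one. Slc7a7 had 0 and 1 counts in these. Slc6a20a and Slc6a20b are near copies, and their split is uncertain too. Sacm1l over Slc6a20b stood at 51.8 to 80.2 CPM in transformed cells, so the low Slc6a20b values are also uncertain for this reason.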

How the data were processed

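RNA-seq counts of 9 libraries from 6 samples were used. The deposited files hold raw read counts per NCBI gene number, which the authors made with tools that include TopHat2 2.0.11 and Bowtie 0.12.8 on mm9, per the submitters' processing notes. How reads were counted, by which annotation and with what strand setting, is not given in the sources used here. Names came from the RefSeq table of GRCm38.p6 (23185 of 23282 gene numbers matched, 97 did not), and transcript lengths from GENCODE M21. CPM is the count over the library total, without TMM.

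The 7 MLL-AF9 libraries entered 1 fit with 4 groups in edgeR 4.0.16 (R 4.3.3, limma 3.58.1), with TMM scaling, the default expression filter, the quasi-likelihood test and Benjamini-Hochberg adjustment over all 14997 genes, at a threshold of 0.05. Errors are SE for log2 fold changes. LSK libraries, 1 per label, had log2 ratios of CPM with no test. Alternatives were total-count and RLE scaling, a filter at a mean of 5 CPM or none, DESeq2 1.42.0, the FOXO3 pair summed, the replicate number as a block, only the libraries compared and each library left out. The test was also run on simulated data with 200 changed genes. Every simulated library had the same spread, unlike the pairs here, so that run cannot vouch for these calls.

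Library numbers come from the file names and only name libraries. Members and lists were chosen with earlier results of these data known. Members named were a fixed set of 19, every member called, the 3 with the largest change not called, the most abundant of each family, and in LSK cells members past 2-fold with a mean of at least 5 CPM; of each pathway list, the 3 with the smallest p, given with values where they passed. Slc38a6, Slc7a3, Slc6a13, Slc6a17, Slc6a20b, Slc6a21, Slc1a7, Slc7a6os, Trib3, Psat1, Phgdh, Fnip2, Cbs, Asl, Csf1r, Mrc1, Ly6c2, Klf1 and Car1 were named outside that rule after their values were seen.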

Additional observations from a re-analysis of the deposited data

Results flagged for a closer look

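In 10 members the LSK ratio and the MLL-AF9 libraries pointed in opposite ways. Counted were genes averaging 1 CPM or more in both kinds of cell, without overlap between the deleted and intact MLL-AF9 libraries. Slc7a2, Slc38a6, Slc38a7, Slc6a17, Slc7a1 and Slc1a7 met the same limits and pointed the same way in both. Directions here are of CPM without TMM. On TMM scaling the log2 fold change of Slc7a1 after Mll4 loss was −0.12, against an LSK log2 ratio of 1.46. The share of opposed genes over all genes was not counted, so the 10 are not read as a trait of the transporters. The difference between the cell types was not tested, and LSK cells had 1 library per label. The log2 ratio of the LSK library labelled deleted over the wild type one was −6.32 for Slc38a1 and −5.40 for Slc7a6 (both taken at a limit of 3 counts), −1.29 for Slc7a6os and −1.17 for Slc7a14, while the MLL-AF9 values of these 4 were higher in the deleted pair. It was 4.49 for Slc38a9 and 3.86 for Slc6a8, which were lower in the deleted MLL-AF9 pair. In the other 4 it was under 2-fold. It was −0.88 for Slc6a20b, −0.61 for Slc7a4 and −0.47 for Slc43a1, which were higher in the deleted MLL-AF9 pair. It was 0.21 (−0.12 to 0.54 from counting error) for Slc1a2, which was lower in that pair. For Slc6a20b the log2 fold change after Mll4 loss on TMM scaling was only 0.05 (adjusted p = 0.922 by edgeR).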

How the results depend on the processing

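Calls among the members depended on the fit. After Mll4 loss 4 were called, 7 with a mean of at least 5 CPM, 10 with DESeq2, and 0 with the FOXO3 pair summed or only the 4 libraries compared; leaving out 1 library gave 0 to 11. With FOXO3 5 were called, 3 with a mean of at least 5 CPM, 11 with DESeq2, 0 with the pair summed and 33 with only the 3 libraries compared; leaving out 1 library gave 0 to 12, and no value without the empty vector. Over all genes 2237 were called after Mll4 loss (1196 higher, 1041 lower), 3540 with total-count scaling (2940 and 600), 312 with the pair summed, 0 in 4 libraries, 3695 with DESeq2 and 302 to 3106 with 1 library left out; for FOXO3 the counts were 1069, 178 with the pair summed, 9710 in 3 libraries, 2185 with DESeq2 and 140 to 2213 with 1 left out. The smaller fits have fewer samples, yet some of them called more genes and some fewer. In the fit of 3 libraries the spread comes from the FOXO3 pair alone, which may be technical. The causes of these differences were not tested. Same-numbered libraries share only a number (correlation of deviations 0.253), and a replicate block called 8 members after Mll4 loss; the crossed block, which pairs libraries of 1 sex, called 3 for FOXO3. Of the calls printed, the block ended Slc1a2 after Mll4 loss (adjusted p = 0.0581) and Slc7a1 with FOXO3 (0.0917), and the crossed block ended Slc1a2 (0.0586) after Mll4 loss and Slc38a5 (0.112), Slc7a8 (0.0791) and Slc7a1 (0.0638) with FOXO3. TMM-scaled CPM moved the family sums after Mll4 loss to −0.25 (Slc1a), −0.74 (Slc6a), −0.35 (Slc7a), −0.17 (Slc38a) and −0.14 (Slc43a), and with FOXO3 to 0.40 (Slc1a) and 0.33 (Slc38a). Without the most abundant member they were −0.34 (Slc1a), −0.72 (Slc6a) and −0.37 (Slc36a) after Mll4 loss, and 1.05 (Slc1a), −1.63 (Slc3a), 1.41 (Slc36a) and 0.18 (Slc38a) with FOXO3. The Slc3a value is then Slc3a1 alone, with 1 count in each FOXO3 library against 4 with the empty vector, too few to read. Leaving out the 3 genes of the other strand, chosen after seeing the data, moved no family sum by more than its spread. Signs turned in 27 values of 16 genes, and of these Slc7a8 alone passed in a fit of the turned sign. After Mll4 loss total-count scaling gave 0.022 (Slc1a5), 0.071 (Slc38a10), 0.099 (Slc38a2), 0.047 (Slc43a2), 0.073 (Slc43a3), 0.16 (Slc7a1) and 0.10 (Slc7a11), and the crossed block −0.054 (Slc7a8). With 1 library left out the ranges were −0.64 to 0.055 (Slc36a1), −0.60 to 0.12 (Slc43a2), −0.39 to 0.045 (Slc43a3), −0.77 to 0.92 (Slc6a15), −3.29 to 0.15 (Slc6a4), −2.01 to 0.18 (Slc6a9), −0.17 to 0.0056 (Slc7a1), −0.019 to 0.35 (Slc7a4), −0.21 to 0.86 (Slc7a5) and −0.83 to 0.79 (Slc7a8, without deleted library 1 and without deleted library 2). With FOXO3 Slc3a2 was 0.049 in the replicate block, and Slc7a14 was 0.029 with total-count scaling, 0.0011 with no filter, 0.027 with the pair summed, 0.020 in 3 libraries and −0.025 to 0.035 with 1 left out. Of the other values for single genes 826 kept direction and side of the threshold, 67 passed newly and 56 no longer passed.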
